A study of Oryzias latipes with 6 samples.

Results

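The genes described here are 7 of the 24365 rows in the authors' tables. They are fkbp5, 3 corticosteroid receptor genes (nr3c1, NR3C1 and nr3c2) and 3 genes known to respond to corticosteroids (zbtb16a, ddit4 and mt2), each matched exactly by its row name and listed in all 14 tables. They were chosen by earlier results of the same lineage comparison, so their lineage differences are given as descriptions and not as tests. The series holds RNA of single nuclei, captured in droplets, from 6 whole brains of male F1 Japanese medaka sampled as adults at 6 months. In the control lineage (3 fish) the parents had been kept with the solvent alone, and in the BaP lineage (3 fish) the parents had been kept for 21 days with 1 µg/L benzo[a]pyrene, a polycyclic aromatic hydrocarbon formed by combustion. All F1 fish grew up in clean water and were never exposed themselves, and each library came from 1 brain. The comparison asks what parental exposure does to expression in the unexposed offspring, within each of 14 clusters of nuclei.

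Corticosteroids such as cortisol, the main stress hormone of fish, act through receptors that sit in the cytoplasm in a complex with heat shock protein 90 and its co-chaperones. When the hormone binds, the receptor moves to the nucleus and switches genes on or off. fkbp5 encodes a co-chaperone of that complex which lowers the receptor's affinity for hormone, and in mammals the gene is itself induced by the receptor, a short feedback loop. Many ray-finned fishes, but not all, carry a pair of glucocorticoid receptor genes beside a single mineralocorticoid receptor gene, and the last also binds cortisol.

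The tables give 1 value per cluster and not per fish, so the spread among the 3 fish behind each lineage value is unknown. The p-values in the authors' deposited tables appear to take nuclei as replicates and so measure the spread between nuclei. Levels, in CPM (counts relative to a fixed library total), were worked out for each lineage from the arithmetic of the authors' tables, and the same arithmetic gave 2429 control-lineage and 5083 BaP-lineage nuclei, 69 to 1754 per cluster, at a mean depth of 684 to 1905 UMIs (unique molecular identifiers) per nucleus. Clusters 12 and 13 held only 15 and 14 control-lineage nuclei, and cluster 3 held 71 against 638. Over the better-expressed genes of each cluster (those above the median level), the median log2 fold change of the authors' deposited tables ran from -0.01 in cluster 7 to 0.34 in cluster 13, with 0.25 in cluster 3. Transcripts encoded by the mitochondrial genome were a smaller share of the BaP-lineage level in every cluster, for example 28.9% against 16.3% in cluster 6 (control, then BaP lineage). The log2 ratio of fkbp5 without prior counts was also taken with each lineage scaled to its own summed level. With the mitochondrial transcripts left out of that sum it was 1.88 in cluster 6 (2.12 with them). It was 2.29 in cluster 5 (2.44 with them) and 1.11 in cluster 3 (1.38 with them).

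Clusters are called by number and by the genes that stood out in them. Of the markers at 10 CPM or more in a cluster, 2 times the mean of the other clusters was reached by 12 of 15 for radial glia in cluster 9 (such as slc1a2b), by 9 of 11 for oligodendrocytes in cluster 6 (plp1b and mpz) and by all 6 for glutamatergic neurons in cluster 3 (tbr1b). The count was 7 of 8 for cerebellar granule neuron markers in cluster 5 (zic1), 8 of 11 for Purkinje or eurydendroid neuron markers in cluster 11 (aldoca), and 6 of 7 for oligodendrocyte precursor markers in cluster 12 (olig1). In cluster 8 it was reached by all 9 endothelial markers and all 4 erythrocyte markers. In cluster 7 it was reached by all 5 epithelium, all 5 fibroblast and all 3 skeletal muscle markers, and by 3 of 4 microglia markers. Keratins (krt4, krt5) led cluster 7, apolipoprotein genes (apoa1b, apoa2) led cluster 13, pvalb7 and bnc2 were among the leading genes of cluster 4, and tcf7l2 of cluster 10. Clusters 1 and 2 were led by peptide hormone genes, each high in 1 lineage only. oxt in cluster 1 was at 12.8 against 299 CPM, and pomca in cluster 2 was at 772 against 21.8 CPM (control, then BaP lineage). All 9 GABAergic markers stood out in cluster 1 and 7 of 12 thalamic or tectal markers in cluster 2. Cluster 0 was the shallowest.

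Across the 7 genes and 14 clusters, 98 pairs in all, the authors' deposited tables called 8 pairs higher and 3 lower in the BaP lineage at an adjusted p under 0.05. These were 8.16% and 3.06% of the pairs. Over all genes and clusters the tables called 0.116% of pairs higher and 0.133% lower, and 0.433% and 0.495% of pairs with at least 10 counts, but since the rule used this contrast, nothing is read from the gap. In total 2.29% of all genes were called in at least 1 cluster. The 8 higher pairs were fkbp5 in clusters 1 to 6 and zbtb16a in clusters 6 and 9, and the 3 lower pairs were mt2 in clusters 0 and 2 and ddit4 in cluster 2. None of the 3 receptor genes was called in any cluster.

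**Figure D1:**
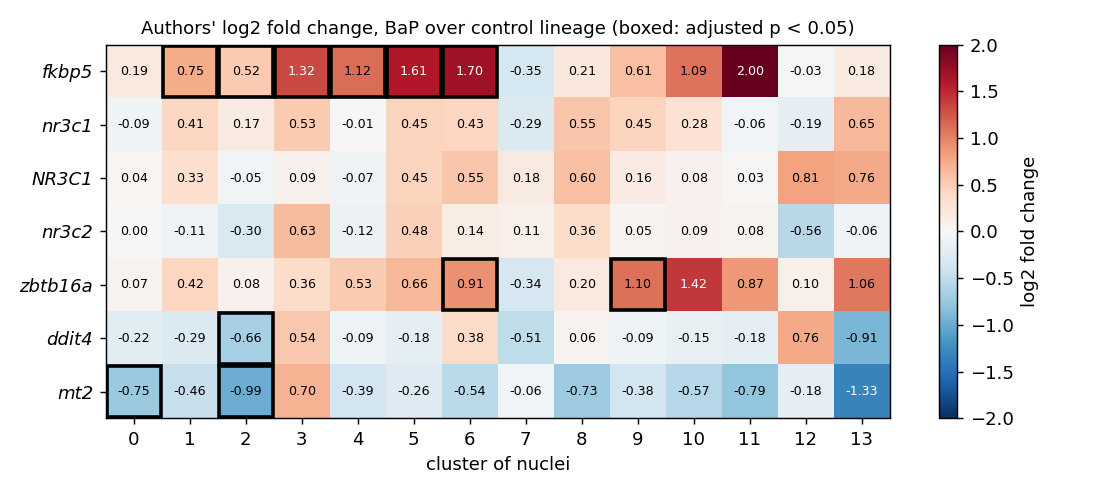
Log2 fold change (BaP over control lineage) of the 7 genes (rows) in the 14 clusters of nuclei (columns), as in the authors' deposited tables, with a black box where the adjusted p was under 0.05. fkbp5 and zbtb16a are mostly red (higher), mt2 is blue (lower) in 13 of 14 clusters, and the receptor rows have no box.

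fkbp5 was detected in every cluster, and its level differed by 7.47 times between the highest and the lowest. Over both lineages it was highest in the radial glia-like cluster 9 (1280 CPM, counting interval 1169 to 1398), then in the myelin-gene cluster 6 (1082 CPM, 980 to 1192) and in cluster 13 (778 CPM). A middle group of clusters followed: 8 (508 CPM), 3 (507 CPM), 5 (455 CPM), 12 (443 CPM), 7 (421 CPM) and 4 (376 CPM). The lowest levels were in clusters 2 (286 CPM), 10 (264 CPM), 1 (255 CPM), 0 (246 CPM) and 11 (171 CPM). Of the 13 pairs of neighbours in this order, the 95% Poisson intervals were apart for 3 (clusters 6 and 13, 13 and 8, and 4 and 2). They overlapped for the other neighbours, whose order was not tested. All such intervals cover counting error and not the spread between fish.

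The order was not the same in the lineages taken alone. In the control lineage, fkbp5 stood at 892 CPM in cluster 9, 692 CPM in cluster 13, 508 CPM in cluster 7, 456 CPM in cluster 8 and 452 CPM in cluster 12, and the myelin-gene cluster 6 came next with 345 CPM. It was at 217 CPM in cluster 0, 216 CPM in cluster 2, 161 CPM in cluster 3, 156 CPM in cluster 4, 144 CPM in cluster 1, 102 CPM in cluster 10 and 99.1 CPM in cluster 5. No fkbp5 count was worked out among the 32 control-lineage nuclei of cluster 11, for which a floor of 3 counts is 67.6 CPM and the 95% Poisson interval reaches 83.2 CPM. Clusters 6 to 9, 12 and 13, led by glial, vascular, keratin or plasma protein genes, thus held the 6 highest control-lineage values. In the BaP lineage, clusters 9 (1416 CPM) and 6 (1407 CPM) were level within their counting intervals. They were followed by cluster 13 (798 CPM), cluster 8 (541 CPM), cluster 3 (540 CPM), cluster 5 (505 CPM) and cluster 4 (455 CPM).

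**Figure D2:**
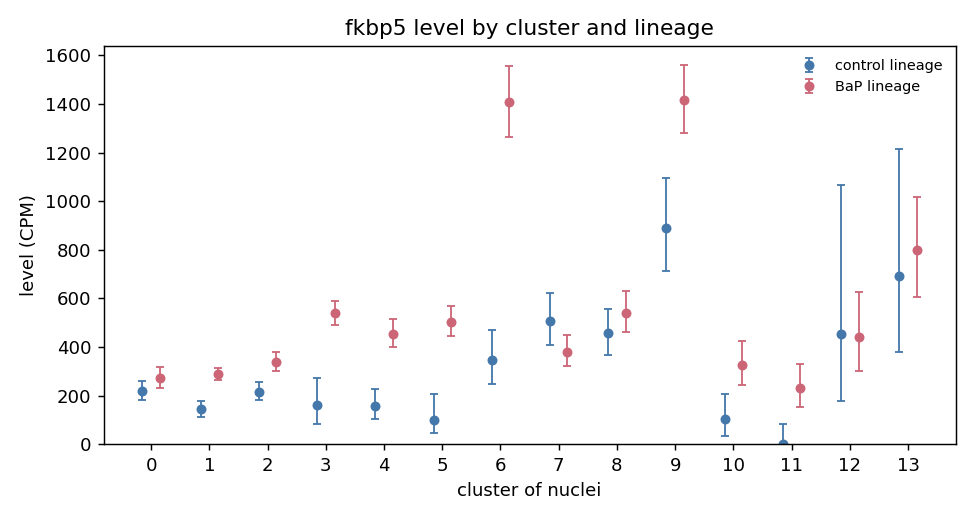
Level of fkbp5 in CPM (y axis) in each cluster of nuclei (x axis), for the control lineage (blue) and the BaP lineage (red), worked out from the authors' deposited tables with prior counts taken out. Bars are 95% Poisson intervals of the worked-out counts and do not include the spread between fish. The pair of intervals is apart in 9 of 14 clusters, among them clusters 1 to 6, and overlaps in clusters 0, 7, 8, 12 and 13.

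In the authors' deposited tables fkbp5 was called higher in the BaP lineage in 6 clusters, and it was the only gene called higher in 6 or more (0.0041% of all genes). Its level was 4.08 times higher in the myelin-gene cluster 6, from 40 control-lineage counts and 370 BaP-lineage counts. There the authors' deposited table gave a log2 fold change of 1.70, the smallest p of the table (adjusted p = 2.5e-11), in a cluster where 0.271% of genes were called higher. The 2 intervals, 246 to 469 CPM and 1266 to 1556 CPM, did not overlap. Cell type markers differed between the lineages in the same cluster: the summed oligodendrocyte level was 8173 CPM in the control lineage and 13229 CPM in the BaP lineage (10 of 11 markers higher), and the radial glia sum was 3835 and 5475 CPM (14 of 16 higher, 1 without counts). The radial glia sum includes glula itself, which was at 1319 against 2432 CPM in this cluster. Other marker sums went both ways. The granule neuron sum was 77.0 against 205 CPM, the GABAergic sum 642 against 429 CPM, the thalamic or tectal sum 454 against 291 CPM and the microglia sum 350 against 207 CPM. The part of these markers in the fkbp5 difference, and in those of zbtb16a and glula in this cluster, was not tested. In the granule neuron-like cluster 5 the fkbp5 level was 5.09 times higher, 99.1 CPM on 8 control-lineage counts against 505 CPM on 275. The authors' deposited table gave a log2 fold change of 1.61 (adjusted p = 0.0015), 1 of only 4 genes called higher there (0.0164%).

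In the glutamatergic neuron-like cluster 3, the fkbp5 level was 3.36 times higher (161 CPM on 13 control-lineage counts against 540 CPM on 467). The log2 fold change in the authors' deposited table was 1.32 (adjusted p = 0.0026), against 0.3% of genes called higher and a median of 0.25 over well-expressed genes. Some marker sums were lower in the 71 control-lineage nuclei of cluster 3. The glutamatergic sum was 511 CPM against 1007 CPM (8 of 8 higher in the BaP lineage), and the radial glia sum was 553 against 1734 CPM (15 of 16 higher, 1 without counts). The Purkinje sum was 647 against 1168 CPM (8 of 11 higher). Of all better-expressed genes in this cluster, 84.1% had a positive log2 fold change in the authors' deposited table. Among the sums that went the other way were the erythrocyte sum (1330 against 740 CPM) and the thalamic or tectal sum (137 against 116 CPM). The part of these markers in the fkbp5 difference of cluster 3 was not tested. In the other 4 called clusters, the radial glia sum was lower in the BaP lineage: 1272 against 1134 CPM in cluster 1, 3184 against 2398 CPM in cluster 2, 1481 against 1173 CPM in cluster 4 and 2407 against 1944 CPM in cluster 5 (control, then BaP lineage). The glutamatergic sum was higher there: 274 against 373 CPM in cluster 1 and 297 against 392 CPM in cluster 2. It was 252 against 512 CPM in cluster 4 and 320 against 391 CPM in cluster 5. The granule neuron sum of cluster 5 was 3027 against 3610 CPM, its thalamic or tectal sum 693 against 244 CPM and its GABAergic sum 465 against 300 CPM. Single markers were split in places. In cluster 4, 8 radial glia markers were higher in the BaP lineage and 7 lower. In cluster 5, 4 glutamatergic markers were higher and 3 lower. The part of these markers in the fkbp5 differences was not tested. In cluster 4 the fkbp5 level was 2.91 times higher, 156 against 455 CPM, with a log2 fold change of 1.12 in the authors' deposited table, where 0.296% of genes were called higher. Cluster 1 had 144 against 289 CPM (2.01 times, log2 fold change of 0.75 in the authors' deposited table, 0.279% of genes called higher). Cluster 2 had the smallest called difference, 216 against 337 CPM (1.56 times, log2 fold change of 0.52 and adjusted p = 0.043 in the authors' deposited table, 0.131% of genes called higher).

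The 8 other clusters were of different kinds. In clusters 10 and 11, led by neuronal genes, fkbp5 was as far apart between lineages as in the called clusters. It was at 102 against 324 CPM in cluster 10 (6 and 55 counts), and none against 233 CPM in cluster 11. The cluster 11 value was 3.44 times the floor of 3 counts, and a smaller multiple of the upper end of the Poisson interval (83.2 CPM). The authors' deposited tables gave log2 fold changes of 1.09 and 2.00 for clusters 10 and 11, with unadjusted p of 0.0054 and 0.00037 and adjusted p of 1 and 0.48. In cluster 11 the Purkinje sum was 7547 against 16789 CPM (11 of 11 markers higher) and the GABAergic sum was 1228 against 2237 CPM. The radial glia sum was 2535 against 2342 CPM. The median log2 fold change of well-expressed genes in the authors' deposited table was 0.23 in this cluster. The part of these markers in the fkbp5 difference was not tested. In cluster 9, where fkbp5 was highest, the level was 892 against 1416 CPM and the counting intervals were apart, but the authors' deposited table gave an adjusted p of 0.86 (log2 fold change 0.61). Cluster 0 had 217 against 273 CPM and cluster 8 had 456 against 541 CPM, with overlapping intervals. In cluster 7, led by keratin genes, fkbp5 was at 508 CPM in the control lineage and 380 CPM in the BaP lineage, with a log2 fold change of -0.35 in the authors' deposited table (adjusted p = 1). Marker sums went both ways there: erythrocyte 5522 against 1605 CPM, microglia 1506 against 723 CPM, radial glia 2407 against 3916 CPM and fibroblast 167 against 586 CPM. The part of these markers in the fkbp5 and zbtb16a differences of cluster 7 was not tested. In cluster 12 (452 against 441 CPM) and cluster 13 (692 against 798 CPM) the control-lineage values rest on 6 and 13 counts. The 14 comparisons share the same 6 fish, so they are not independent of each other, and a difference in fkbp5 between clusters was not tested.

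Summed over all clusters, 728 fkbp5 counts were worked out for the control lineage and 3204 for the BaP lineage. The lineages had unlike shares of clusters: cluster 0 held 37.5% of control-lineage nuclei and 16.6% of BaP-lineage nuclei, and cluster 3 held 2.92% and 12.6%. With both lineages given the same cluster shares, fkbp5 was at 253 CPM in the control lineage and 474 CPM in the BaP lineage, 1.87 times higher. With each lineage's own shares the ratio was 1.83, and with each cluster left out in turn at equal shares it ran from 1.70 (without cluster 6) to 2.03 (without cluster 0). The other 6 genes gave ratios at equal shares of 1.45 for NR3C1, 1.45 for zbtb16a, 1.44 for nr3c1, 1.15 for nr3c2, 0.82 for ddit4 and 0.614 for mt2.

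**Figure D3:**
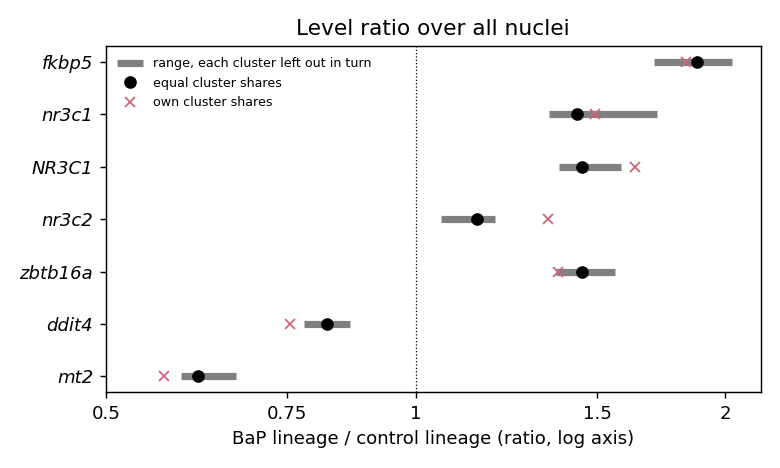
Ratio of the summed level over all nuclei, BaP over control lineage (x axis, logarithmic), for the 7 genes (y axis). Black points give both lineages the same cluster shares, red crosses use each lineage's own shares, and grey bars span the values with each cluster left out in turn. fkbp5 lies highest at 1.87, and ddit4 (0.82) and mt2 (0.614) lie below 1.

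nr3c1 and NR3C1 are separate rows whose names differ only in case. The RefSeq gene table used here holds nr3c1 with the synonym gr1, a glucocorticoid receptor, and NR3C1 is taken as a second receptor gene by its name alone. Both had few counts. nr3c1 ranged from 21.0 CPM in cluster 7 to 113 CPM in cluster 5, and none of its 13 pairs of neighbouring clusters had counting intervals apart. NR3C1 ranged from 24.4 CPM in cluster 11 to 115 CPM in cluster 4, again with no neighbours apart. Summed over clusters, 137 control-lineage and 494 BaP-lineage counts were worked out for nr3c1 and 119 and 467 for NR3C1.

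For nr3c1, log2 fold changes in the authors' deposited tables ran from -0.29 in cluster 7 to 0.65 in cluster 13, 9 of them positive. The smallest adjusted p was 0.18, in cluster 1, where the level was 41.7 CPM in the control lineage and 78.2 CPM in the BaP lineage. In cluster 8 it was 16.1 CPM on 3 counts against 66.1 CPM on 21 (unadjusted p = 0.017 and adjusted p = 1 in the authors' deposited table). For NR3C1, log2 fold changes in the authors' deposited tables ran from -0.07 in cluster 4 to 0.81 in cluster 12, 12 of them positive, and the smallest adjusted p was 0.57. In the myelin-gene cluster 6, where fkbp5 rose most by p, nr3c1 stood at 26.1 against 79.9 CPM and NR3C1 at 34.5 against 110 CPM, but on only 3 and 4 control-lineage counts. The authors' deposited table gave both an adjusted p of 1 there.

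nr3c2, the mineralocorticoid receptor gene, was the receptor gene with the most counts (511 and 1653) and the one with the widest range between clusters. Over both lineages it was highest in cluster 5 (627 CPM), cluster 10 (577 CPM) and cluster 3 (450 CPM), all rich in glutamatergic or granule neuron markers. Cluster 9 came next with 277 CPM, and the step from cluster 3 to cluster 9 was the only pair of neighbours with intervals apart in this order. The lowest was cluster 12 with 85.4 CPM on 7 counts. In the control lineage alone, cluster 3 (269 CPM on 22 counts) was close to cluster 9 (266 CPM on 27). The order of nr3c2 therefore did not follow that of fkbp5: cluster 6, second for fkbp5, had 157 CPM of nr3c2. Its log2 fold changes in the authors' deposited tables lay between -0.56 (cluster 12) and 0.63 (cluster 3), with 9 positive and 5 negative and no adjusted p under 0.76. In cluster 5 it was 440 against 653 CPM and in cluster 10 it was 548 against 588 CPM.

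**Figure D4:**
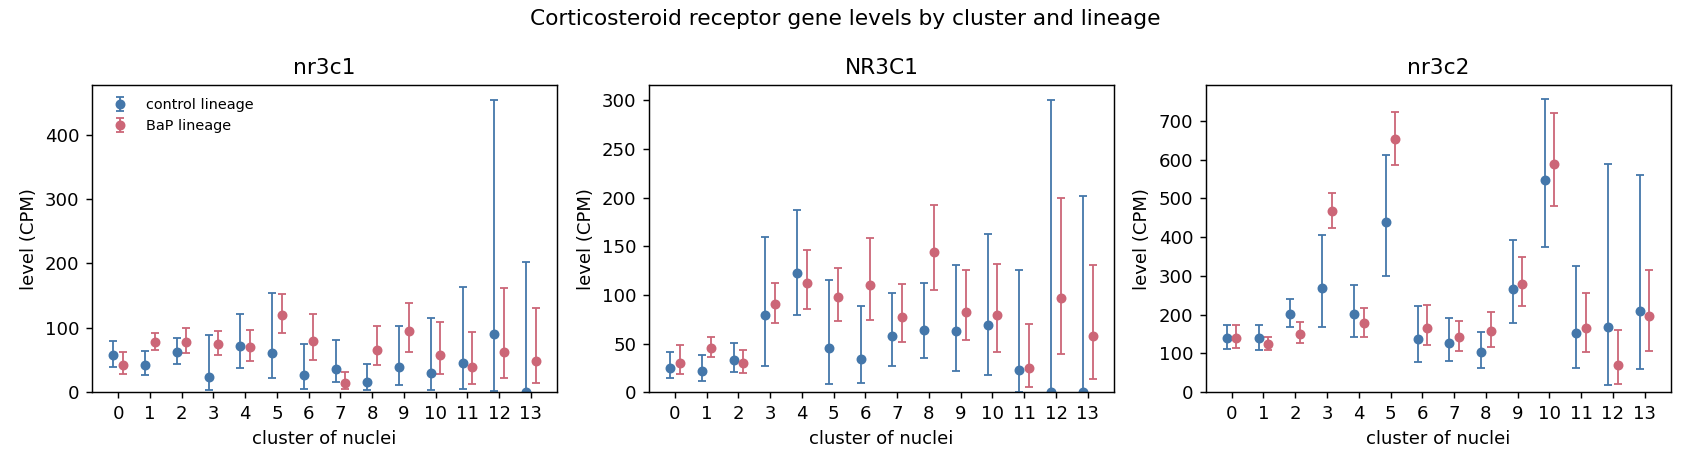
Levels in CPM (y axes, different scales) of nr3c1, NR3C1 and nr3c2 in each cluster of nuclei (x axes), for the control lineage (blue) and the BaP lineage (red), worked out from the authors' deposited tables. Bars are 95% Poisson intervals of the worked-out counts. nr3c2 stands out in clusters 5 and 10 in both lineages and in cluster 3 in the BaP lineage. The lineages' intervals are apart in 1 cluster for nr3c1, in 1 for nr3c2 and in none for NR3C1.

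zbtb16a encodes a zinc finger transcription factor, PLZF, whose mammalian counterpart is induced by glucocorticoids. Over both lineages it was highest in clusters 9 (572 CPM), 6 (457 CPM), 12 (416 CPM) and 7 (404 CPM), and lowest in the granule neuron-like cluster 5 (69.8 CPM). No pair of neighbouring clusters had intervals apart in this order. In the control lineage alone, clusters 7 (485 CPM) and 12 (385 CPM on 5 counts) came first. Clusters 9 (260 CPM) and 6 (234 CPM) were then close to cluster 1 (233 CPM). In the radial glia-like cluster 9 the level was 260 CPM (26 counts) in the control lineage and 682 CPM (194 counts) in the BaP lineage. The authors' deposited table called it higher, 2.63 times by level, with adjusted p = 0.0097, where 0.0657% of all genes were called higher. Marker sums differed in cluster 9 too: radial glia 29517 against 33940 CPM, Purkinje 897 against 1424 CPM, epithelium 255 against 568 CPM and GABAergic 788 against 544 CPM. Their part in the zbtb16a difference was not tested. In the myelin-gene cluster 6 the zbtb16a levels were 234 and 556 CPM, with a log2 fold change of 0.91 and adjusted p = 0.030 in the authors' deposited table.

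Beyond the 2 called clusters, zbtb16a had a positive log2 fold change in the authors' deposited tables for 11 of the remaining 12 clusters. The largest, 1.42 in cluster 10, came from 104 CPM on 7 counts against 435 CPM on 73. Its adjusted p in the authors' deposited table was 0.45. In cluster 1, which held more zbtb16a counts than any other cluster, the levels were 233 and 336 CPM on 127 and 588 counts (adjusted p = 0.24 in the authors' deposited table). Only cluster 7 went the other way, at 485 against 365 CPM, and fkbp5 was also lower in the BaP lineage there. In cluster 2, which had a called difference in fkbp5, zbtb16a was at 210 and 226 CPM.

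ddit4, also called redd1, encodes an inhibitor of the growth kinase mTORC1 and is induced by glucocorticoids, low oxygen and DNA damage in mammals. It was highest in clusters 8 (223 CPM), 6 (203 CPM), 9 (190 CPM) and 1 (185 CPM) and lowest in cluster 11 (36.1 CPM). In cluster 2 it was at 160 CPM in the control lineage and 77.5 CPM in the BaP lineage (101 and 67 counts), the reverse of fkbp5 in the same cluster. The log2 fold change in the authors' deposited table was -0.66 with adjusted p = 0.010, where 0.575% of all genes were called lower. The radial glia sum (3184 against 2398 CPM) and the erythrocyte sum (1810 against 1108 CPM) were also lower there. The oligodendrocyte sum was lower too (709 against 379 CPM), and the glutamatergic sum was higher (297 against 392 CPM). Of the radial glia markers, 5 were higher and 10 lower. Their part in the ddit4 difference was not tested. In the authors' deposited tables the log2 fold change of ddit4 was negative in 10 of 14 clusters. Among clusters with at least 3 counts in each lineage, the level differed upward by more than 1.5 times only in cluster 6 (146 against 229 CPM, intervals overlapping).

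mt2 encodes a metallothionein, a small cysteine-rich protein that binds zinc and copper, and its transcription responds to metals and oxidants as well as to glucocorticoids. Its cluster order over both lineages began as that of fkbp5 did, with cluster 9 (1049 CPM), cluster 6 (917 CPM), cluster 13 (700 CPM) and cluster 8 (619 CPM). In the control lineage alone it began with cluster 13 (1454 CPM on 27 counts), cluster 9 (1290 CPM) and cluster 6 (1206 CPM), unlike that of fkbp5. The lineage difference of mt2 went the opposite way to that of fkbp5. In cluster 0 it was at 344 CPM (204 counts) in the control lineage and 131 CPM (80 counts) in the BaP lineage. The authors' deposited table gave a log2 fold change of -0.75 and an adjusted p of 3.2e-07, where 0.222% of all genes were called lower. In cluster 2 it was at 427 CPM (269 counts) and 182 CPM (158 counts), with a log2 fold change of -0.99 and the smallest adjusted p among the 14 tables for this gene, 3.9e-08, in the authors' deposited table. The radial glia, oligodendrocyte and erythrocyte sums were also lower in the BaP lineage in these clusters. Single radial glia markers were split: 6 higher and 9 lower in cluster 0, and 5 higher and 10 lower in cluster 2. The oligodendrocyte sum was 532 against 347 CPM in cluster 0 and 709 against 379 CPM in cluster 2. Other sums were higher, such as the glutamatergic one (298 against 343 CPM and 297 against 392 CPM). The radial glia sum was 1984 against 1618 CPM in cluster 0 and 3184 against 2398 CPM in cluster 2, and the erythrocyte sum was 1423 against 642 CPM and 1810 against 1108 CPM. The radial glia sum includes glula, at 472 against 256 CPM in cluster 0 and 810 against 463 CPM in cluster 2. The part of these markers in the mt2 difference was not tested.

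In the authors' deposited tables the log2 fold change of mt2 was negative for 13 of 14 clusters, and 6 had an unadjusted p under 0.05. Clusters 8 (848 against 474 CPM), 6 (1206 against 790 CPM), 1 (240 against 156 CPM) and 13 (1454 against 524 CPM) were among these without being called. Cluster 9 had 1290 against 964 CPM. The exception was cluster 3 (unadjusted p = 0.047 in the authors' deposited table), at 31.5 CPM on 3 control-lineage counts against 110 CPM on 95. In cluster 7 the lineages were close, with 503 and 479 CPM. In the myelin-gene cluster 6, fkbp5 and mt2 thus stood on opposite sides: fkbp5 counted 40 against 370 and mt2 140 against 208, on 123 and 270 nuclei.

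**Figure D5:**
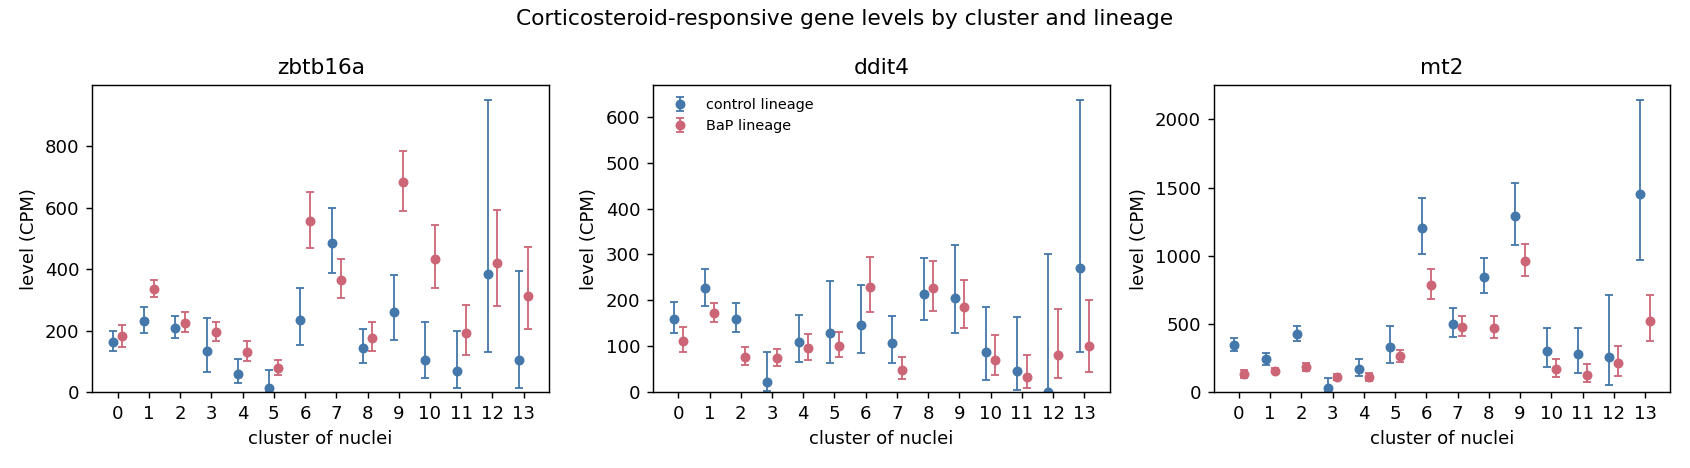
Levels in CPM (y axes, different scales) of zbtb16a, ddit4 and mt2 in each cluster of nuclei (x axes), for the control lineage (blue) and the BaP lineage (red), worked out from the authors' deposited tables. Bars are 95% Poisson intervals of the worked-out counts. Red lies above blue for zbtb16a in 13 of 14 clusters and below blue for mt2 in 13 of 14.

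The wider pathway was followed in 7 lists with 131 different genes in the tables besides the 7 above. Over the 14 clusters the authors' deposited tables called 3 of their 1834 gene and cluster pairs higher and 5 lower (0.164% and 0.273%), beside 0.116% and 0.133% over all genes. These calls lay in 6 genes. Of 22 chaperones and co-chaperones of the receptor complex, 1 was called higher, 1 lower and 20 in no cluster, where 2.29% of all genes were called in at least 1 cluster. The calls were 0.649% of this list's 308 pairs. hsp90aa1.2, an alpha form of heat shock protein 90, was lower in cluster 2 (223 against 117 CPM, log2 fold change -0.66 in the authors' deposited table), and its values were negative in 12 of 14 clusters. hsp90ab1, the beta form, was higher in cluster 3 (log2 fold change 0.67 in the authors' deposited table), where the median of well-expressed genes was 0.25.

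None of 15 other FK506-binding protein genes was called in any cluster of the authors' deposited tables. fkbp4, the closest relative of fkbp5 in the receptor complex and known in mammals to act opposite to it, had negative values in 11 of 14 clusters, from -0.41 to 0.66, with no adjusted p under 0.80. None of 14 coactivators and corepressors of nuclear receptors, 13 enzymes of corticosteroid metabolism and 10 other steroid receptors was called either. Of all genes, 2.29% were called in at least 1 cluster. The median log2 fold change over detected pairs in the authors' deposited tables was 0.09 for coregulators, 0.02 for FK506-binding proteins, 0.03 for the enzymes, -0.01 for the other steroid receptors and -0.02 for the chaperones, beside 0.04 over all genes.

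Among 45 further genes known to respond to corticosteroids, 44 were called in no cluster of the authors' deposited tables, where 2.29% of all genes were called in at least 1 cluster. The calls were 0.476% of the list's 630 pairs, beside 0.116% of all pairs called higher and 0.133% called lower. The median over detected pairs was 0.04, as for all genes. The called gene was glula, glutamine synthetase, which is also a marker of radial glia. It was lower in clusters 0 (472 against 256 CPM) and 2 (810 against 463 CPM) and higher in the myelin-gene cluster 6 (1319 against 2432 CPM). The authors' deposited tables list these as -0.58, -0.73 and 0.82 on the log2 scale. A few well-known glucocorticoid targets were picked out after their values were seen. TSC22D3, which encodes the protein GILZ, had positive values for 12 of 14 clusters in the authors' deposited tables, and its smallest adjusted p was 0.083, in cluster 6 (log2 fold change 0.81). per1b, a clock gene, was positive in 10 of 14 clusters, and pdk4, a kinase that limits glucose oxidation, in 13 of 14, both without a call in the authors' deposited tables. SGK1, a kinase, was positive in 7 of 14 and dusp1, a phosphatase, in 3 of the 12 clusters that detected it, again uncalled in the authors' deposited tables.

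Of 13 hypothalamic and pituitary genes of the stress axis, 3 were called in 1 cluster each. These calls were 1.65% of the list's 182 pairs, beside 0.116% of all pairs called higher and 0.133% called lower. pomca, the precursor of the hormone that drives cortisol release, was lower in cluster 2 (772 against 21.8 CPM, 486 and 19 counts, log2 fold change -3.26 in the authors' deposited table, 0.575% of genes called lower). It is also a leading gene of that cluster. The sum over the 6 other pituitary hormone genes of the marker list was lower there too, at 39.5 CPM on 25 control-lineage counts against 6.91 CPM on 6. Only 2 of the 6 were detected, and 1 of those was higher in the BaP lineage. Their part in the pomca difference was not tested. oxt, the isotocin gene, was higher in cluster 1 (7 against 522 counts, log2 fold change 2.15 in the authors' deposited table, 0.279% of genes called higher). ucn3l, a urocortin, was lower in cluster 1 on 15 and 7 counts (log2 fold change -0.39 in the authors' deposited table, 0.456% of genes called lower). crhb, the corticotropin-releasing hormone gene, had its smallest adjusted p in cluster 1 (0.22, log2 fold change 0.56 in the authors' deposited table).

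Likeness to fkbp5 was measured as Pearson's correlation across the 14 clusters, which share fish and differ in depth, and is a description. By level over both lineages, among 5326 other genes with a symbol that were detected in every cluster, the closest were TMBIM6 (r = 0.86), slc4a4a (0.85), MPDZ (0.85), rorca (0.85) and qki2 (0.84). slc4a4a, a bicarbonate transporter, and qki2, an RNA-binding protein of glia, had values of 1111 and 1614 CPM in cluster 9. Of the 6 other genes described here, mt2 was nearest (r = 0.74) and nr3c2 farthest (r = 0.09). By log2 fold change in the authors' deposited tables, among 45 other genes called in at least 3 clusters, the closest was gkup (r = 0.60), called higher in 4 clusters and with 1.75 in cluster 6. It was followed by pdxkb (0.57), RLIM (0.56), hbbe2 (0.51) and PNPLA6 (0.51). RLIM, hbbe2 and PNPLA6 were called only lower.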

How the data were processed

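Per the labels' protocols, 10x 3' libraries were made from nuclei of 6 brains. Cell Ranger is named in the submitters' processing notes (no version). Per the series' design text, reads were aligned to a medaka assembly, libraries were aggregated and lineages were compared within clusters. No source used here gives the clustering, the filters, the treatment of doublets, the tool of the comparison or what it took as replicates. The authors deposited, for each of 14 clusters and 24365 genes, a log2 fold change, a log2 mean CPM, a p-value and an adjusted p-value, per the file headers. Recomputing Benjamini-Hochberg values over all 24365 deposited p-values gave the deposited adjusted ones. The tables' names code the control as 0 and the treated group as 1, so a positive fold change was read as higher in the BaP lineage.

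No test was added, and a gene was called at an adjusted p under 0.05. Nuclei, counts and levels per lineage were worked out from the deposited log2 values and the p-values of genes with 1 count, on the assumption, stated by no source, of an exact test for negative-binomial counts of nuclei with prior counts of 2 (level) and 0.125 (fold change). In tables built with known answers on clusters 4, 6 and 13 (24365 genes each), the nuclei were recovered, and log2 ratios without prior counts had median errors of 0.018, 0.022 and 0.056. Those tables were built with the same prior counts, so they check the arithmetic and cannot show whether the authors' tables follow the assumption. Their levels summed to 0.998 to 0.999 times the CPM total. In the authors' tables the worked-out levels sum to 1.06 to 1.17 times that total per cluster, so absolute levels are approximate and the error of the ratios is unknown. The sums per lineage differ most in cluster 3 (0.89 against 1.15). No level is corrected for this. Depth per fish is unknown.

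The members and gene lists were chosen with earlier results of these data known. Symbols of lists were matched without regard to case, with a final a or b added or dropped. Named genes are the 7 members in every cluster, list genes called in any cluster (at most 8 a list) and the 5 symbols most like fkbp5 by level and by fold change. Outside this rule, the uncalled list genes fkbp4, crhb, TSC22D3, per1b, pdk4, SGK1 and dusp1 were named as well. Other thresholds, adjustments, prior counts, scales and sets of clusters were tried as alternatives. Python 3.11 was used (numpy 2.4.6, pandas 2.3.3, scipy 1.17.1). Symbols of 3 members (nr3c1, nr3c2 and ddit4) were found in the RefSeq gene table (assembly ASM223467v1, another build than the authors'), so no coordinates are given.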

Additional observations from a re-analysis of the deposited data

How the results depend on the processing

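fkbp5 stayed called higher in 4 to 6 clusters under the 6 alternatives for the call: 5 at an adjusted p under 0.01, with adjustment over all tables together and with the Benjamini-Yekutieli adjustment (all without cluster 2), and 4 where the size of the log2 fold change had also to reach 1 (clusters 3 to 6). Calls over the 7 genes, 11 in the main setting, fell to 5 with that minimum, none of them lower, and to 7 with the Benjamini-Yekutieli adjustment, without zbtb16a and ddit4. For the other pathway genes, 8 calls became 13 at an adjusted p under 0.1 and 2 with the minimum fold change. The median log2 fold change of fkbp5 over clusters was 0.68 and ran from 0.61 to 0.92 under the 5 other settings listed for it. The log2 mean CPM as deposited put cluster 0 first in level, in place of cluster 9, because its prior count is a larger share of a shallow nucleus. An added alternative, chosen after seeing the data, scaled each lineage to its own summed level. It moved fkbp5 in cluster 3 from 1.75 to 1.38 on the log2 scale without prior counts, and in cluster 12 from -0.03 to -0.21, and turned the sign of no fkbp5 value. The sign did turn for mt2 in cluster 7 (-0.07 to 0.06), zbtb16a in cluster 12 (0.13 to -0.05) and nr3c2 in cluster 11 (0.12 to -0.06). For NR3C1 it turned in clusters 2 (-0.16 to 0.04) and 3 (0.19 to -0.18). By Spearman's correlation, 1 of the 5 genes nearest to fkbp5 in level was shared (TMBIM6), and 4 of 5 by fold change. No paired analysis was possible because the columns carry no replicate, and leaving out each fish was not possible for the same reason.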
